A study of Bos taurus with 10 samples.

Results

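The genes described here encode splicing factors and hnRNP proteins, the RNA-binding proteins that decide which parts of a primary transcript are kept. They were chosen by symbol: every probe set whose platform annotation gave exactly 1 gene symbol was taken if that symbol began with SRSF, HNRNP, SNRP, SF3A or SF3B, or was PRPF followed by a number. This gave 76 probe sets for 49 genes, of 9155 genes with a symbol of their own on the array, and the probe set with the highest mean stood for each gene. By family these were 9 SR protein genes, 16 hnRNP genes, 8 snRNP genes, 9 genes of the SF3A and SF3B complexes and 7 PRPF genes. All 49 passed the filter on low signal, a mean log2 level over 6.98, which left 6271 genes (68.5%) for testing.

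The samples were poly(A) RNA from the longissimus dorsi, the long back muscle, of 10 Hanwoo, a Korean beef breed. They form 1 group, numbered 1 to 10 here, and were taken as separate animals from their sample numbers alone. Each was read on 1 GeneChip Bovine Genome Array. The age, about 2 years, is given for animal 1 alone, and sex, feed and treatment are not given. The series is about muscle expression in relation to beef traits. No trait values were used here, so the genes are described by their level, their spread between animals and their covariation with measures taken from the arrays themselves.

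Splicing removes introns in a large particle, the spliceosome, built from small nuclear ribonucleoproteins (snRNPs) that assemble on the transcript one after another. SR proteins mostly bind exons and recruit the particle, while hnRNP proteins coat the nascent transcript and often keep splice sites from being used. The balance between both kinds of protein shapes exon choice, and skeletal muscle is among the tissues with the most alternative exons, in genes such as titin and the troponins. Many SR and hnRNP genes also control their own level through exons that lead the transcript to decay.

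Values are log2(intensity + 16) after quantile normalization, and a fold on this scale understates changes of dim genes. Each probe set has its own brightness, so levels are compared between animals and never between genes. The median deposited intensity was between 111 and 134 per array. Any pair of arrays correlated with an r between 0.901 and 0.959. The muscle markers, 8 of 10 listed and all 8 tested, had a summed intensity between 416897 and 436088 in every animal. The sum was taken after quantile normalization, which gives the brightest probe sets nearly the same values on every array. It therefore cannot show equal muscle content. Animal 5 stood apart in the added poly(A) control RNAs, bacterial transcripts that are labelled along with each sample and read at both ends. There the 3' end exceeded the 5' end by 2.80 (log2), while the other 9 arrays had 1.09 to 1.38. On the array as a whole its correlations with the others ran from 0.901 to 0.929, and those among the other 9 from 0.918 to 0.959. These ranges overlapped, and the highest value of animal 5 was below the median of all pairs, 0.933. The main results are therefore also given without animal 5.

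The SR proteins are the classical splicing activators. SRSF7 varied most among them. Its lowest value was 10.48, in animal 5, its median 11.61 and its highest 12.04, in animal 1, a 2.94-fold range with an SD of 0.48 (n = 10). Animal 5 lay below all others, the next being animal 8 at 10.90, and without animal 5 the SD was 0.35. SRSF9 ran the other way, from 10.02 in animal 1 over a median of 10.41 to 11.42 in animal 5 (SD 0.42, and 0.30 without animal 5). SRSF5, which responds to insulin and growth signals in several cell types, ranged from 10.23 in animal 6 to 11.52 in animal 2 (median 10.79), and here animal 5 was inside the range of the others. SRSF3, the smallest SR protein, was highest in animal 3 at 11.66 and lowest in animal 8 at 10.56, with a median of 11.09. SRSF6 lay between 10.17 and 10.89 and the founding member SRSF1 between 8.26 and 9.27. The steadiest of all 49 genes on the brightest probe set was SRSF4, with 11.68 ± 0.12 (SD, n = 10), from 11.48 in animal 8 to 11.90 in animal 9. Its second set, with a mean of 7.82, had an SD of 0.84, so this steadiness holds for the brightest set alone. SRSF10, an SR protein that represses splicing when dephosphorylated, and SRSF11 had SDs of 0.19 and 0.21.

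The hnRNP genes differed widely in spread. HNRNPL, whose protein binds CA repeats and represses exons near them, had the second largest SD of the 49 genes, 0.58. It stood at 7.49 in animal 6, at a median of 8.65 and at 9.51 in animal 10, a 4.07-fold range. Animals 2, 9 and 10, at 9.49, 9.19 and 9.51, lay above the other 7, and animal 6 lay below them all; without animal 6 the SD was 0.40. Its paralogue HNRNPLL, a regulator of exon choice in lymphocytes, had its lowest value of 8.39 in animal 9, a median of 8.71 and its highest of 9.67 in animal 5. The other 9 animals stayed at or below 8.86, and on this probe set the SD of 0.36 was 0.16 without animal 5. When the arrays were normalized anew without animal 5, its second probe set became the brightest, and that set had an SD of 0.38.

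HNRNPH2, which binds runs of G, ranged from 9.09 in animal 1 over a median of 9.54 to 10.65 in animal 5. Its close relative HNRNPH1 was lowest in animal 5, at 12.16, with a median of 12.89 and a highest value of 13.10 in animal 9. HNRNPH3 was likewise lowest in animal 5, at 9.74, and highest in animal 1, at 11.06. Without animal 5 the SDs of HNRNPH2, HNRNPH1 and HNRNPH3, which were 0.42, 0.30 and 0.37, were 0.23, 0.23 and 0.31. Animal 5 thus lay above the other 9 for HNRNPH2 and below them for HNRNPH1 and HNRNPH3. Each of the 3 paralogues had 1 probe set, so a difference between the genes cannot be told apart from one between probe sets. HNRNPF, of the same G-binding subfamily, reached 13.57 in animal 5, while the other 9 had 12.42 to 12.90. Its probe set carries the suffix that the array maker gives to sets whose probes match more than one transcript.

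HNRNPA0, a protein of the A/B group that binds AU-rich messages, stood at 10.76 in animal 5 against 9.39 to 10.07 in the others (median over all 10, 9.58). HNRNPK, which binds poly(C), had its lowest value in animal 1, 11.80, and its highest in animal 5, 13.44 (median 12.64, SD 0.42, and 0.33 without animal 5). HNRNPD, known as AUF1 for its part in the decay of AU-rich messages, was also highest in animal 5, at 11.74, with 10.70 to 11.30 in the others. The cluster number of its probe set is shared with probe sets annotated to LDHA, so its identity is uncertain. HNRNPM, a splicing repressor, was lowest in animal 5 at 10.95 and highest in animal 2 at 12.19 (SD 0.44, and 0.38 without animal 5). The other 6 hnRNP genes, HNRNPAB, HNRNPC, HNRNPDL, HNRNPR, HNRNPU and HNRNPUL1, had SDs from 0.16 to 0.32 on their brightest probe sets. On these sets they were never outermost in animal 5. HNRNPUL1 was the third steadiest gene of the 49 by this measure, from 10.93 in animal 7 to 11.39 in animals 4 and 8. Its other sets, with means of 9.46 and 9.09, had SDs of 0.30 and 0.50. Animal 5 differed from the mean of the others by 0.41 and -1.37 in them.

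The snRNP genes encode the ring of Sm proteins that all major snRNPs but one share (SNRPB, SNRPD2, SNRPD3 and SNRPG among those measured) and proteins of the U1 particle (SNRPA, SNRPC) and the U2 particle (SNRPA1, SNRPB2). SNRPD3 stood at 9.72 in animal 5, while the other 9 had 10.96 to 11.43, and its median was 11.09. SNRPG had 9.86 in animal 5, 10.42 in animal 6 and 10.93 to 11.50 elsewhere (median 11.07). SNRPB2 had 9.0 in animal 5 and 9.72 to 10.55 elsewhere (median 9.90). In all 3 genes animal 5 was lowest, though in SNRPG animal 6 lay below the rest too. The SDs of 0.47, 0.49 and 0.45 were 0.15, 0.32 and 0.32 without animal 5. SNRPD2 (11.94 against 12.27 to 12.86), SNRPA (8.5 against 9.03 to 9.57) and SNRPA1 (10.74 against 11.02 to 11.67) were also lowest in animal 5. SNRPB, whose lowest value was 11.56 in animal 7, and SNRPC, lowest in animal 1 at 11.74, had animal 5 inside the range of the others. The median SD of the snRNP genes was 0.20 without animal 5.

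The SF3A and SF3B proteins belong to the U2 snRNP and hold the branch site of the intron. SF3B5, the smallest subunit of SF3B, had the largest SD of all 49 genes, 0.81. It stood at 9.10 in animal 5, while the other 9 had 11.36 to 11.92, and its median was 11.51. Animal 5 differed from the mean of the others by -2.48, or 5.57-fold, and without it the SD was 0.20. SF3B4, which contacts the transcript upstream of the branch site, had 7.95 in animal 5 and 8.09 to 9.41 elsewhere. SF3A1 (8.03 against 8.39 to 8.94), SF3B1 (11.17 against 11.53 to 11.87) and SF3B6, which touches the branch point itself (10.87 against 11.23 to 11.46), were lowest in animal 5 too. SF3A2, SF3A3, SF3B2 and SF3B3 were not: their values in animal 5 lay inside the range of the others. SF3A2 ranged from 9.74 in animal 6 to 11.23 in animal 10, on a probe set with the same multiple-transcript suffix as that of HNRNPF. SF3A3 was the second steadiest gene of the 49, at 9.99 ± 0.16 (SD, n = 10), from 9.73 in animal 4 to 10.23 in animal 3.

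The PRPF genes encode proteins that act at different steps of splicing. PRPF3, a protein of the U4/U6 particle, stood at 7.76 in animal 5, between 8.71 and 9.54 in the others and at a median of 9.04. PRPF18, which acts in the second catalytic step, had the opposite order: 10.98 in animal 5, 10.33 in animal 6 and 9.04 to 9.91 in the other 8 animals. These were the fourth and the third largest SDs, 0.51 and 0.55, and without animal 5 they were 0.27 and 0.38. PRPF6, which bridges the tri-snRNP, was lowest in animal 6 at 7.92, while the other 9 animals stood between 8.62 and 9.30. PRPF8, the scaffold of the catalytic centre, had an SD of 0.17 (11.06 to 11.56) and PRPF4 had 0.18 (9.47 to 9.95). PRPF31 and PRPF39 had SDs of 0.28 and 0.21; PRPF39 was the member nearest the filter level, with a mean of 7.16.

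**Figure D1:**
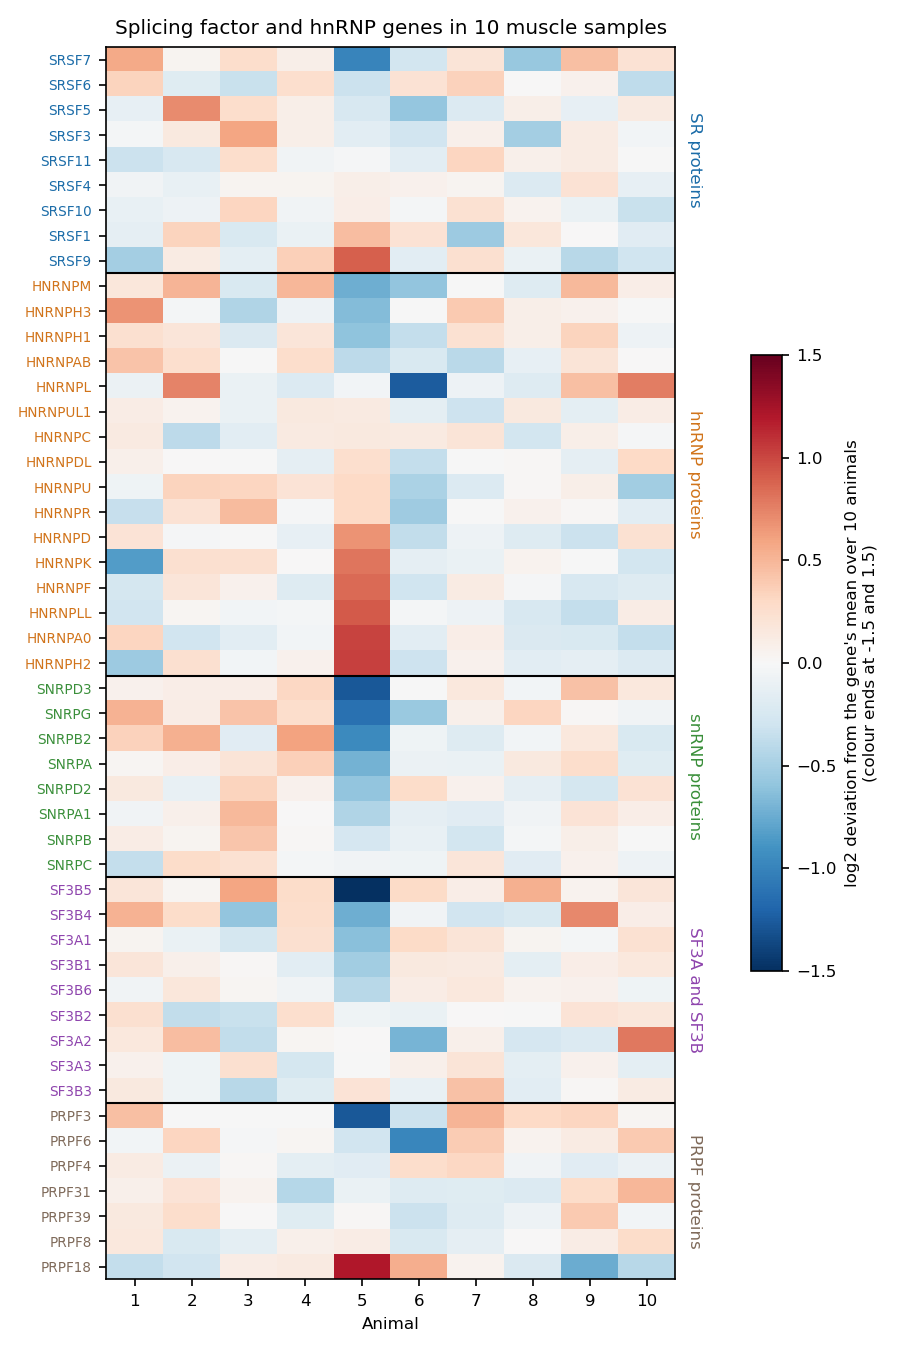
Log2 deviation of each of the 49 genes (rows, by family) from its own mean in each of the 10 animals (columns), with red above and blue below the mean. The column of animal 5 holds the deepest colours, blue for SF3B5, PRPF3 and most snRNP genes and red for PRPF18, HNRNPA0 and HNRNPH2, while HNRNPL is deepest in animal 6.

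As a set, the 49 genes had a smaller spread between animals than the array at large. Their median SD was 0.30, against 0.36 over all 6271 tested genes, and their SDs ran from 0.12 to 0.81. Of the 49 genes 4 (8.16%) had an SD above 0.5, namely SF3B5, HNRNPL, PRPF18 and PRPF3, against 22.1% of all tested genes. Without animal 5 the medians were 0.23 and 0.31, and HNRNPL alone stayed above 0.5, against 14.6% of all tested genes. The median level of the 49 genes was 10.87, above the 9.24 of all tested genes, and the part of the level in the difference of spread was not tested. By family the median SD was 0.29 for SR genes, 0.33 for hnRNP genes, 0.29 for snRNP genes, 0.24 for SF3A and SF3B genes and 0.28 for PRPF genes. Without animal 5 these were 0.28, 0.23, 0.20, 0.20 and 0.27.

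**Figure D2:**
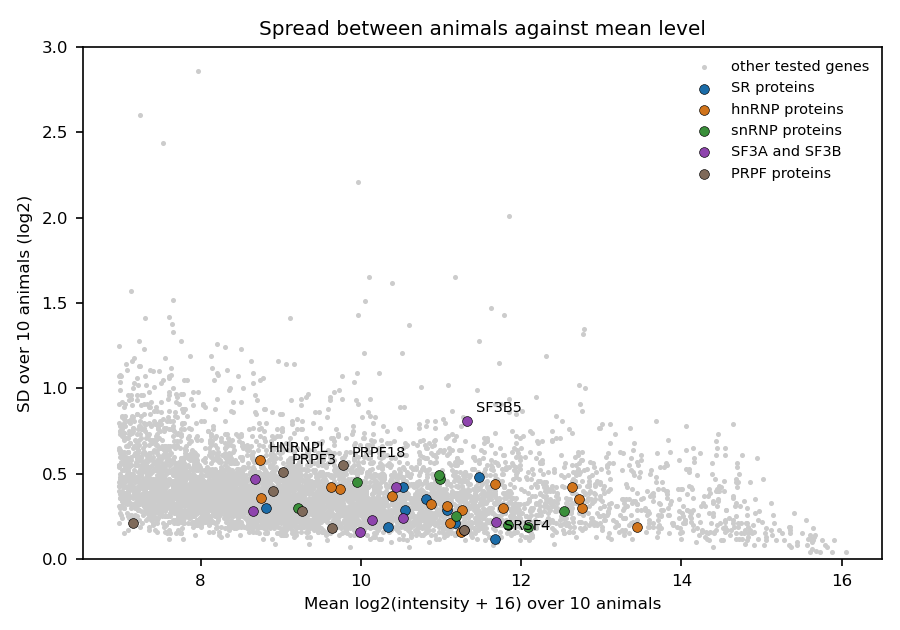
SD over 10 animals (vertical axis, log2) against mean log2(intensity + 16) (horizontal axis) for the 49 genes, coloured by family, and all other tested genes in grey. Most of the 49 genes lie in the lower part of the cloud with SDs below 0.5, and SF3B5 at 0.81 is the highest of them.

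Most pairs of these genes correlated weakly across the animals. The median correlation over the 1176 pairs was 0.05, against 0.00 over all pairs of tested genes, and 54.8% of pairs were above 0, against 50.4%. An r above 0.7 was found in 6.8% of their pairs against 3.58% of all pairs, and one below -0.7 in 4.51% against 3.01%. Without animal 5 these shares were 3.15% against 2.52% and 1.45% against 2.36%. The snRNP genes had the highest family median, 0.54 over 28 pairs, and it was 0.19 without animal 5. The hnRNP genes had a median of 0.16 over 120 pairs (0.11 without animal 5), the SF3A and SF3B genes 0.16 (0.07), the PRPF genes 0.11 (0.09) and the SR genes 0.02 (0.05). These values describe pairs that share the same 10 arrays, and no test was made of them. Centring each array on its median in place of quantile normalization gave a median of 0.20 over the 1176 pairs. The median over all pairs of tested genes was not taken with that centring, so 0.20 cannot be read as particular to these genes.

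Animal 5 held the lowest of the 10 values in 17 of the 49 genes, where 27.5% of all tested genes had it lowest, and the highest in 9, where 21% of all tested genes had it highest. The shares among the 49 genes were 34.7% and 18.4%. With each array centred on its median the counts were 13 and 11 of the 49, and 1439 and 1492 of all 6272 genes tested then. With probe sets averaged they were 19 and 4 of 48, and 1716 and 1004 of all 5823 genes tested in that way. The counts by family, not tested against each other, were as follows. Animal 5 was lowest in 6 of 8 snRNP genes and highest in 0, and its difference from the mean of the other 9 had a median of -0.72. It was lowest in 5 of 9 SF3A and SF3B genes and highest in 0 (median -0.46). Among 16 hnRNP genes it was highest in 6 and lowest in 3 (median 0.30). Of 9 SR genes it was lowest in SRSF7 and highest in SRSF1 and SRSF9, and of 7 PRPF genes it was lowest in PRPF3 and PRPF4 and highest in PRPF18. With each array centred on its median, animal 5 was lowest in 5 of the 8 snRNP genes and highest in 7 of the 16 hnRNP genes. With probe sets averaged it was highest in 3 and lowest in 3 hnRNP genes, and their median difference was 0.05. Animal 6 was the next most often lowest, in 9 of the 49 genes, and was highest in 1, against 10.8% and 11.6% of all tested genes.

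**Figure D3:**
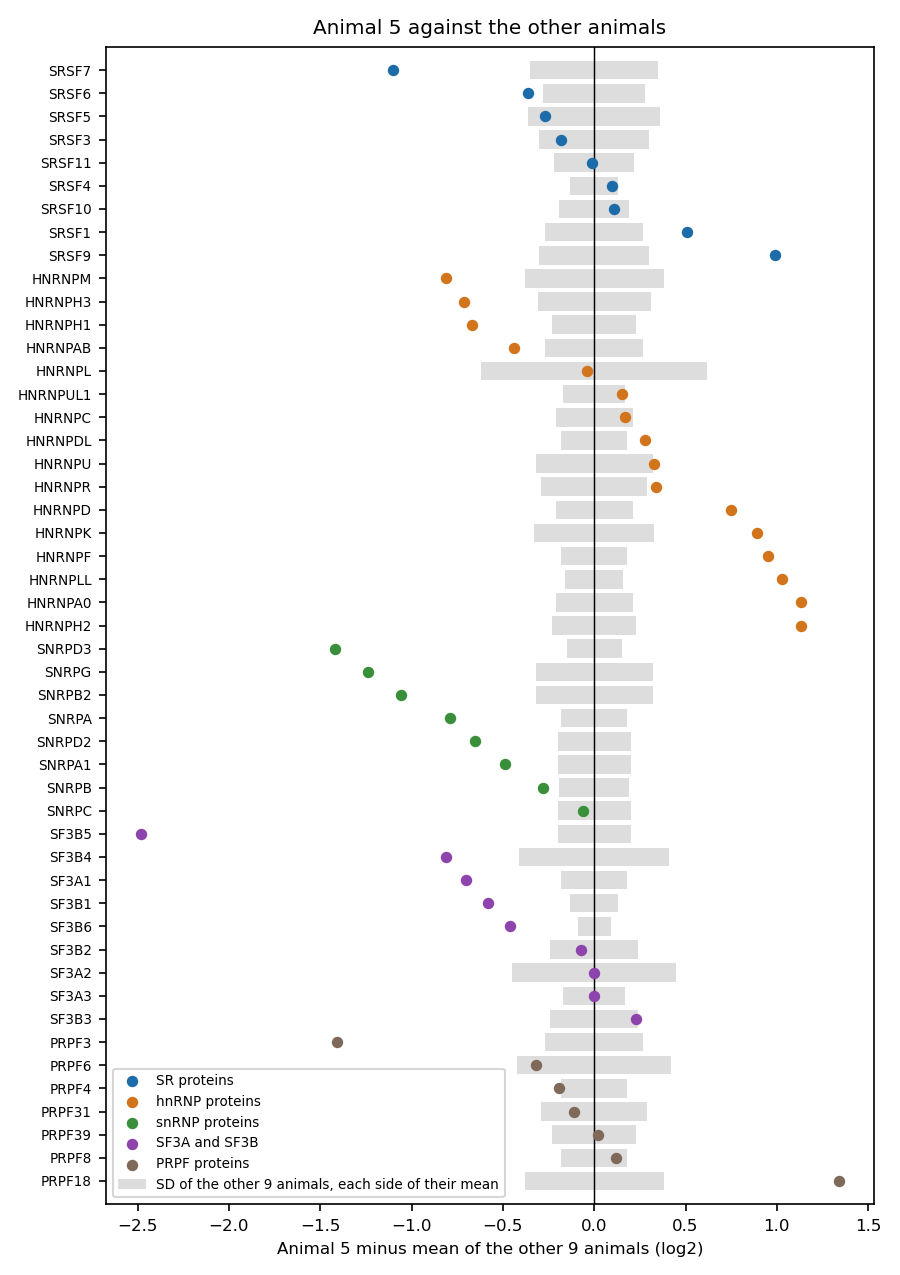
Difference between animal 5 and the mean of the other 9 animals (horizontal axis, log2) for each of the 49 genes, with a grey bar that spans 1 SD of the other 9 to each side. SF3B5 at -2.48 is farthest to the left and PRPF18 at 1.34 farthest to the right, and 8 of 8 snRNP genes lie left of the line at 0 (7 of 8 with median centring).

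Whether these genes followed the poly(A) control difference was tested with limma over all 6271 genes, the slope being the log2 change per SD of that difference. Of the 49 genes 13 passed the Benjamini-Hochberg adjusted threshold of 0.05, 6 that rose and 7 that fell, where 16.9% of all tested genes passed, 4.91% as rises and 12% as falls. SF3B5 fell by 0.78 (SE 0.07, limma adjusted p = 2.38e-05) and SNRPD3 by 0.45 (SE 0.07, adjusted p = 0.00065). SNRPG fell by 0.41 (SE 0.09, adjusted p = 0.0104), PRPF3 by 0.42 (SE 0.10, adjusted p = 0.0128), SNRPB2 by 0.35 (SE 0.10, adjusted p = 0.0251) and SRSF7 by 0.34 (SE 0.11, adjusted p = 0.0389). SNRPA was the seventh that fell. PRPF18 rose by 0.42 (SE 0.12, adjusted p = 0.0257), HNRNPA0 by 0.36 (SE 0.08, adjusted p = 0.00671), HNRNPH2 by 0.34 (SE 0.09, adjusted p = 0.0222) and HNRNPLL by 0.32 (SE 0.08, adjusted p = 0.0145). HNRNPF and HNRNPD also rose, the latter narrowly with a limma adjusted p of 0.0491. By family, 4 of 8 snRNP genes fell and 5 of 16 hnRNP genes rose, with 0 in the other direction. Among SF3A and SF3B genes 1 of 9 fell, among SR genes 1 of 9 fell, and among PRPF genes 1 rose and 1 fell.

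This relation rested on animal 5. Without it 0 of 49 genes and 0 of all tested genes passed in limma, with 7 of the 49 genes (14.3%) and 343 of all tested genes (5.47%) at an unadjusted p below 0.05. A Spearman correlation per gene over all 10 animals called 0 of the 49 genes, with 5 (10.2%) at an unadjusted p below 0.05 against 7.03% of all genes, and 3 genes in all (0.0478%). The fit is therefore close to a comparison of 1 animal with the other 9. Outside that animal the control difference spanned only 1.09 to 1.38. Of the marker lists of other cell types, those of leukocytes and endothelium were outermost in animal 5. The mean log2 deviation of 8 tested leukocyte genes (of 12 listed, 9 measured) was -0.88 there against -0.57 to 0.82 in the others, and that of 7 endothelial genes (of 10 listed, 9 measured) -0.33 against -0.31 to 0.37. The adipocyte score of animal 5, -0.92, and its connective tissue score, -0.51, lay inside the ranges of the others, -0.94 to 1.36 and -0.95 to 1.05. The same measure over 14 immediate early genes (of 21 listed, 15 measured) was 0.85 against -0.74 to 0.52. Over 8 muscle genes it was 0.00 against -0.04 to 0.03, a range that the normalization keeps narrow for genes this bright. Summed intensities in animal 5 were 799 for the leukocyte list, the lowest of a range up to 3162, 3136 for the endothelial list, within a range of 2896 to 4555, and 105802 for the immediate early list, the highest of a range from 24231. The part of these differences in the values of the splicing genes was not tested, and in bulk RNA fewer cells of a type and less RNA per cell cannot be told apart.

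**Figure D4:**
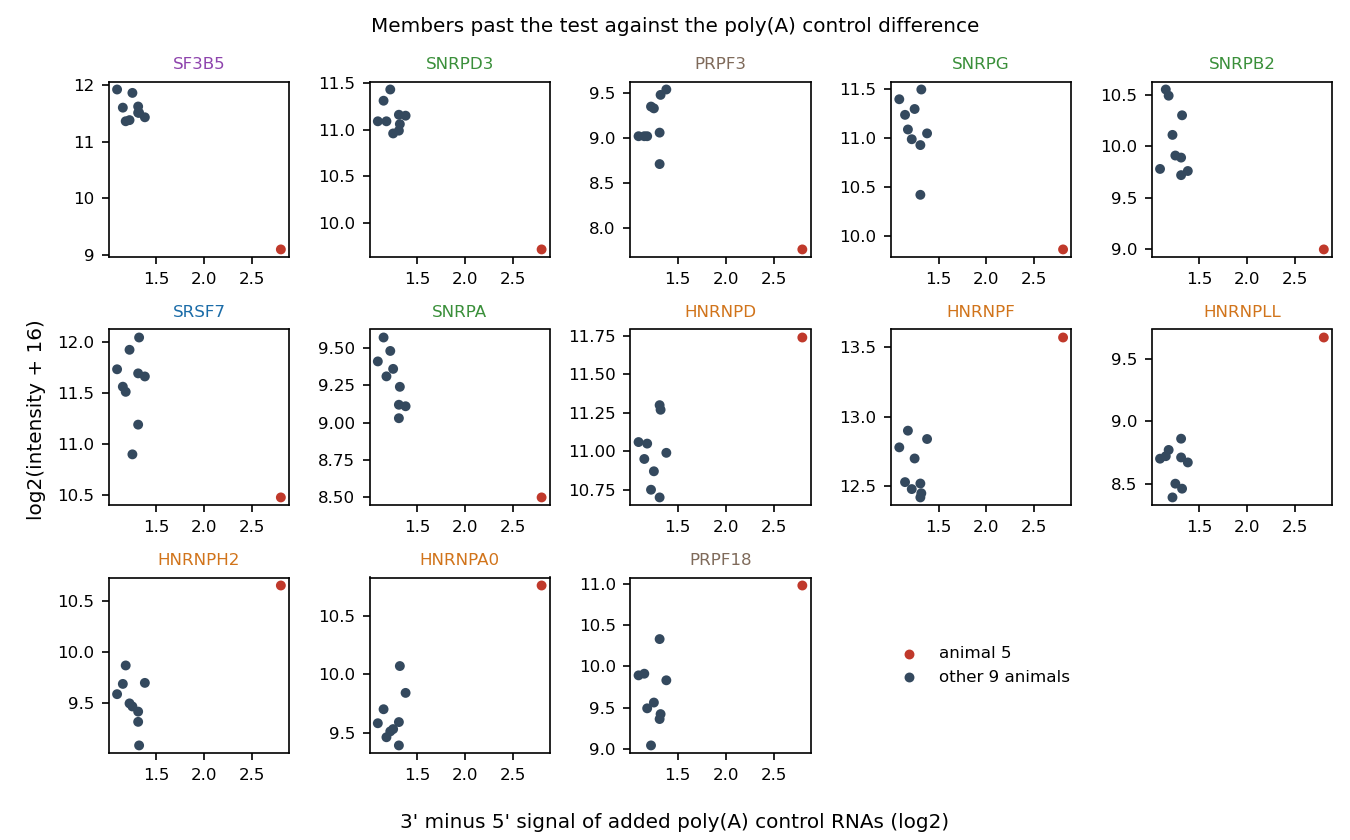
Log2(intensity + 16) of the 13 genes past the limma test (vertical axes, 1 panel a gene) against the 3' minus 5' difference of the added poly(A) control RNAs (horizontal axes, log2), with animal 5 in red and the other 9 animals in dark blue. In every panel the 9 animals form a narrow column between 1.09 and 1.38 and animal 5 stands alone at 2.80.

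A gene's other probe sets did not always repeat the pattern of the brightest. Of the 49 genes 18 had several probe sets, and 12 had at least 2 above the filter level. Between the 2 brightest sets of these 12 genes the median correlation over the animals was -0.01, against 0.34 over 1315 genes of the whole array with at least 2 such sets; without animal 5 the medians were 0.21 and 0.41. In animal 5 the 2 brightest sets lay on the same side of the other animals' mean in 5 of the 12 genes (41.7%), against 54.5% of the 1315. In 5 genes, SRSF1, SF3B1, HNRNPK, HNRNPA0 and PRPF18, sets above the filter level differed from the others' mean by more than 0.5 in opposite directions. The brightest PRPF18 set was 1.34 above the mean of the other animals in animal 5, and the second, with a mean level of 8.91, was 0.92 below it (a difference of -0.92). For HNRNPK the differences were 0.89 and -0.97, and for SRSF1 0.51 and -0.58 in both of its other sets. SF3B1 had -0.58 in its brightest set and 0.85, -0.66 and -1.89 in the next 3. HNRNPA0 had 1.13, 0.60 and -1.41, the last in a set at the filter level itself.

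The direction of animal 5 in these 5 genes therefore depends on which probe set is read. HNRNPF differed likewise, by 0.95 and -0.45. The HNRNPLL call rests on a set only slightly brighter (8.75) than the next (8.71), in which animal 5 was 0.15 above the others. With all sets of a gene averaged in place of the brightest, 8 of the 48 genes then above the filter passed the poly(A) control test, 2 that rose and 6 that fell. This was 16.7% of them, against 14.7% of all genes tested in that way. PRPF18 then had a slope of 0.06 and HNRNPA0 of 0.04, and neither passed. SNRPD3, HNRNPF and HNRNPLL did not pass either. The other SNRPD3 set, below the filter level with a mean of 6.44, had a difference of 0.10 in animal 5, against -1.42 in the brightest. SF3B5, SNRPG, SNRPB2, SRSF7, PRPF3, SNRPA, HNRNPH2 and HNRNPD, each with 1 probe set, were the 8 that passed.

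**Figure D5:**
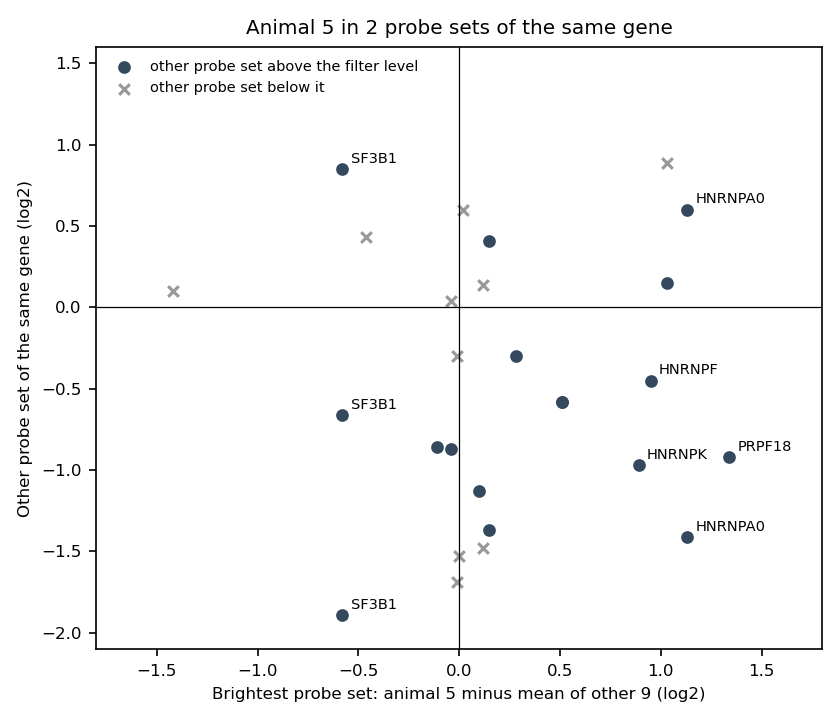
Difference between animal 5 and the mean of the other 9 animals (log2) in the brightest probe set of a gene (horizontal axis) and in each of its other probe sets (vertical axis), for 27 other sets of 18 genes. Points at the upper left and lower right, PRPF18 and HNRNPK among them, had opposite signs in the 2 sets.

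The relation to the rest of the spliceosome was asked with a score over 54 tested spliceosomal genes outside the 49, the mean of their deviations in each animal. This score varied little, from -0.17 to 0.12. In limma 0 of the 49 genes passed, and 0% of the 6217 genes outside the score did. At an unadjusted p below 0.05 there were 12 of the 49 genes (24.5%), 11 with positive slopes, and 17.8% of all those tested; a Spearman correlation per gene called 0 of the 49, with 3 (6.12%) at an unadjusted p below 0.05, against 9.62% of all genes, of which 0.0965% were called. SF3B5 had the largest slope, 0.44 per SD (SE 0.19, limma adjusted p = 0.255), and PRPF18 the smallest, -0.36 (SE 0.13, adjusted p = 0.191). Without animal 5, which held the lowest score, the SF3B5 slope was -0.02. SNRPG had the smallest p (slope 0.40, SE 0.10, limma adjusted p = 0.137). With probe sets averaged it was the 1 gene that passed of the 48 then above the filter (limma adjusted p = 0.0317). In that setting 221 genes outside the score passed, where 5823 genes were tested with those of the score counted. SNRPG had 1 probe set, so averaging left its own values as they were. All 8 snRNP genes had positive slopes, from 0.02 in SNRPC to 0.40 in SNRPG, against 33 of the 49 genes and 51.4% of all genes. All 8 slopes were also positive on the adipocyte score. Animal 5 lay below the mean of the others in all 8 snRNP genes, and the signs of their slopes without it were not tested.

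Fat cells lie between the fibres of this muscle, and an adipocyte score was taken over 7 tested marker genes of 12 listed. In limma 0 of the 49 genes passed, where 0.0319% of all genes outside the list did, and 2 of the 49 (4.08%) had an unadjusted p below 0.05, against 8.43% of all genes. The ends were SF3B5 at 0.34 (SE 0.21, limma adjusted p = 0.672), which was -0.02 without animal 5, and HNRNPD at -0.22 (SE 0.09, adjusted p = 0.53). With the connective tissue score, over 13 tested genes of 17, 0 of the 49 passed against 0.0799% of all genes. SF3B5 had 0.31 (SE 0.22, limma adjusted p = 0.815), which was 0.06 without animal 5, and SF3A2 had -0.30 (SE 0.11, adjusted p = 0.419). The immediate early score, over genes such as FOS and EGR1 that respond within minutes to stress, also called 0 of the 49, where 0% of all genes passed. HNRNPA0 had 0.22 (SE 0.12, limma adjusted p = 0.509) and SF3B5 -0.51 (SE 0.18, adjusted p = 0.453), and both were close to 0 without animal 5, at 0.01 and -0.04. At an unadjusted p below 0.05 there were 3 of the 49 genes (6.12%) in both the connective tissue and the immediate early fit, against 7.88% and 10.5% of all genes. By Spearman correlation 0 of the 49 passed for any of these 3 scores, against 0.0958%, 0.0959% and 0.016% of all genes. Those with an unadjusted p below 0.05 were 2 (4.08%) for the adipocyte score, 3 (6.12%) for connective tissue and 2 (4.08%) for the immediate early score, against 7.9%, 7.37% and 5.74% of all genes.

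Other genes of the pathway were followed in 9 lists. Their counts in the poly(A) control fit stand beside 4.91% of all tested genes that rose and 12% that fell, and without animal 5 no gene of the array passed. In the poly(A) control fit 0 of 15 tested genes of the other snRNP and LSM proteins rose and 5 fell: LSM3, LSM5, LSM7, LSM8 and SNRNP25, named here after their values were seen. LSM7, part of the ring that binds the U6 snRNA, had 8.75 in animal 5 and 10.42 to 11.27 elsewhere (slope -0.63, SE 0.09, limma adjusted p = 0.00053). SNRNP25, a protein of the minor spliceosome, stood at 10.39 against 11.35 to 11.65. Animal 5 was below every other animal in all 5, as it was in 27.5% of all tested genes. For these 5 this largely follows from the call, since the fit is close to a comparison of animal 5 with the other 9. Among branch site factors 2 of 14 rose and 2 fell, and among tri-snRNP and catalytic proteins 1 of 25 rose and 2 fell. The widest SDs of these lists were in DDX46, a helicase of U2 assembly (0.64), and CDC5L, a core protein of the catalytic complex (0.55). SART1, of the tri-snRNP, had the steepest slope of its list on the spliceosome score, 0.30, which did not pass (limma adjusted p = 0.192).

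Of 14 exon junction and export genes 3 fell and 0 rose with the control difference. RNPS1 was one of them, at 10.25 in animal 5 against 10.75 to 11.42, and MAGOHB had the widest SD of the list, 0.50. Of 11 SR-related genes 0 passed in either direction, and the widest SD was that of TRA2A, 0.51, whose paralogue TRA2B had 0.38. Of 8 genes for SR protein kinases and import 2 rose, among them DYRK1B, a kinase of muscle, at 10.16 in animal 5 against 8.38 to 9.50. Of 25 hnRNP-like genes 2 rose and 1 fell. The cold-inducible RBM3 was their most variable gene (SD 0.95, and 0.90 without animal 5), from 8.49 to 10.98. The exon repressor PTBP1 fell, at 5.92 in animal 5 against 6.72 to 8.0 (slope -0.46, SE 0.15, limma adjusted p = 0.0437). Of 7 muscle splicing regulators 1 fell, MBNL2, whose protein switches fetal to adult exons: 6.98 in animal 5 against 8.79 to 9.63. Of 10 genes of the SMN complex, which loads Sm rings on snRNAs, 2 fell, and the gene annotated as SMN2 stood at 6.77 in animal 5 against 7.97 to 8.77. In the other 4 fits 0 genes of the 9 lists passed in limma. Values of the list genes are those of the brightest probe set, and their other probe sets were not examined one by one. In animal 5 PTBP1 and SMN2 lay below the filter level of 6.98, and MBNL2 lay at it.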

How the data were processed

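Poly(A) RNA of 10 muscle samples was biotin-labelled and hybridized to 1-colour arrays, per the labels' protocols. Each deposited number is a linear intensity of a probe set on an array. For its summary and scaling by the authors, software was not given in the sources used here. Their deposited intensities were turned into log2(signal + 16). Array medians spanned 0.24 on this scale, so they were quantile normalized without the 112 control probe sets. SDs and ranges without animal 5 keep this normalization, while fits and pairwise correlations between genes without an animal repeat it. Symbols came from the platform annotation. A RefSeq table changed 0 of them and had no entry for 21.

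Fits used limma version 3.58.1 in R version 4.3.3 (lmFit, and eBayes with a mean-variance trend) over all genes above the median probe set level of 6.98, 1 covariate in SD units at a time, with Benjamini-Hochberg adjustment at 0.05. A gene of a score's own list was fitted against the score without it. The fitting steps were checked on simulated data. Noise there was independent between genes, so calls that arise when 1 array shifts many genes at once were not checked. Genes given in full were the 4 largest and 3 smallest SDs, up to 10 genes past a test, or otherwise the largest slope in each direction, and in each pathway list the widest SD and the steepest slope on the spliceosome score. The genes and lists were chosen with earlier results of these data known. Nothing but sample numbers marks the 10 samples as separate animals, so p-values measure the spread between these samples, whose number limits the precision. Those of the poly(A) control fit rest mainly on how far animal 5 lies from the spread of the others. Alternatives were other scalings, filters and pseudocounts, the mean of probe sets, a second covariate, Spearman correlation and each animal left out.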

Additional observations from a re-analysis of the deposited data

Results flagged for a closer look

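In 13 of the 49 genes (26.5%) 1 animal stood far from the other 9, its gap to the nearest of them as a share of the whole range being above the critical value of Dixon's test; chance gives this in about 1 in 20 groups. The same held for 16.7% of all 6271 tested genes, with animal 5 the low one in 8.63% and the high one in 3.28% of them. Among the 49 genes animal 5 was the low one in 7 (14.3%), with a share of 0.803 for SF3B5, 0.727 for SNRPD3, 0.611 for SF3B6, 0.532 for PRPF3, 0.508 for SF3B1, 0.495 for SNRPA and 0.469 for SNRPB2. It was the high one in 4 (8.16%), with 0.634 for HNRNPLL, 0.58 for HNRNPF and 0.502 for both HNRNPA0 and HNRNPH2. Animal 6 was the low one in the other 2, HNRNPL with 0.518 and PRPF6 with 0.505. The control difference that served as covariate of the poly(A) control fit had animal 5 apart with a share of 0.831.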

How the results depend on the processing

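Counts of the 49 genes past each test stayed at 0 in the adipocyte, connective tissue and immediate early fits under every alternative run, and in the spliceosome fit under all but 1. The poly(A) control count of 13 was 8 with median centring, 8 with the mean of probe sets and 0 by Spearman correlation, which called 3 genes in all. These 8 were 16.3% of the 49 genes with median centring and 16.7% of 48 with the mean of probe sets, close to the 13.4% and 14.7% of all genes called there, where the reported setting had 26.5% against 16.9%. With single animals left out it ran from 0 (without animal 5) to 15, and the count over all genes from 0 to 1144. HNRNPH2, PRPF3, SF3B5 and SNRPG passed limma in all 17 settings of scaling, filter, pseudocount, probe sets and animals that kept animal 5, the reported one included.

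In the spliceosome fit the reported setting called 0 genes. The mean of probe sets called 1 of the 48 genes then above the filter and 221 genes in all. The poly(A) control covariate called 6 genes and Spearman correlation 6. Leaving out animals gave 0 to 94 genes (94 without animal 6, 3 without animal 5, 1 without animal 3). Adipocyte calls, 2 genes, were 0 with the filter at the 75th percentile and 6 by Spearman correlation, and 0 to 3 with animals left out (0 without animal 9, 1 without animal 2). Connective tissue calls, 5 genes, were 2 without a filter, 8 with a pseudocount of 64, 1 with the mean of probe sets and 11 with the poly(A) control covariate. They ran from 0 to 12 with animals left out: 12 without animal 5, 1 without animal 1 or 3 and 0 without any of animals 2, 4, 6, 7, 8 and 9. Immediate early calls, 0 genes, were 1 with median centring, 1 by Spearman correlation and 0 to 1 with animals left out (1 without animal 6).

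The median SD of 0.30 was 0.24 to 0.31 with animals left out. The median pairwise correlation of 0.05 was 0.20 with median centring, 0.14 with the mean of probe sets and 0.02 to 0.07 with animals left out. Over all pairs of tested genes it was taken only in the reported setting and without animal 5. Slopes that changed sign were those of SF3A2 on the connective tissue score (0.04 with the mean of probe sets), of SF3B5 on the spliceosome score and HNRNPA0 on the immediate early score with the poly(A) control covariate (-0.07 and -0.02). With animals left out, the slope of SF3B5 ran from -0.02 to 0.62 on the spliceosome score and from -0.02 to 0.46 on the adipocyte score, and on the poly(A) control difference that of HNRNPH2 ran from -0.10 to 0.38 and that of PRPF3 from -0.46 to 0.10, each changing sign without animal 5. Counting PRPF symbols with a letter after the number would give 52 genes in place of 49. The cause of these changes was not tested. No paired analysis was possible because the samples form 1 group.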
